A study of Canis lupus familiaris with 10 samples.

Results

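PDGFRB, PI16, CD34, THY1 and FAP code for proteins that mark progenitors and fibroblasts of adipose tissue, and their read counts were followed in visceral adipose tissue (VAT) of dogs before and after prolonged hypercortisolism. The 5 genes, out of 19856 in the count tables, were selected on measured values: all of them stand in the list of genes that the study called lower after treatment in these same samples, and that list also gave the link from symbol to Ensembl identifier. Their lower level after treatment is therefore a description and carries no test, and the open question was whether they differed by similar amounts or gene by gene. All 5 were lower in every dog, but by very different amounts: after treatment PI16 stood at 10.9% of its mean level before treatment, THY1 at 31.4%, FAP at 39.6%, PDGFRB at 59.5% and CD34 at 70.2%.

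VAT was taken by laparotomy from 5 adult Beagle dogs (3 males, 2 females), first untreated (Pre-ACTH) and a second time when tetracosactide had been given for 25 weeks (Post-ACTH). Tetracosactide is a synthetic ACTH analog that makes the adrenal gland release cortisol, and it was delivered by osmotic pumps under the skin that were changed at intervals of 4 weeks, at a daily dose of 1.3 to 1.95 μg/kg that was raised to 6 to 10 μg/kg. Each dog served as its own control, so the 10 libraries form 5 pairs, and dog numbers 1 to 5 follow the animal IDs. No dogs without tetracosactide were analysed here, so treatment, the passage of 25 weeks and an earlier laparotomy cannot be told apart.

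Adipose tissue holds, besides mature fat cells, a stroma of fibroblasts and of progenitors that can become fat cells, together with vessels and immune cells. Progenitors sit close to vessels and in the connective tissue septa, and cells of this lineage also deposit the collagen around the fat cells. None of the 5 proteins belongs to 1 cell type alone. PDGFRB, the receptor for platelet derived growth factor B and D chains, is found on stromal progenitors and on the mural cells of vessels. CD34, a sialomucin, is carried by progenitors and fibroblasts and by endothelial cells. THY1 (CD90) is a small glycoprotein held to the membrane by a lipid anchor and a general fibroblast marker, FAP is a membrane-bound serine protease that cleaves after proline, and PI16 is a protein of the CAP family that marks fibroblasts of the adventitia and early progenitors. Cortisol acts on these cells through the glucocorticoid receptor, and a glucocorticoid is a standard ingredient of media that turn progenitors into fat cells in culture.

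Pre-ACTH libraries held 8728330 to 14867529 counted reads and Post-ACTH libraries 12314258 to 14589329, and the smallest was the Pre-ACTH library of dog 3. Values below are normalized counts, that is reads divided by the library size after TMM scaling and multiplied by the mean library size, and log2 fold changes come from edgeR's quasi-likelihood model, blocked by dog and fitted to the 13577 genes that reached 10 reads in 1 or more libraries. The median log2 fold change of all tested genes was -0.0021. Of the 5 genes, 3 (PDGFRB, PI16 and FAP) passed FDR under 0.01, where 1.22% of all tested genes passed in the lower direction, and all 5 passed FDR under 0.05, where 6.28% did. Nothing is read from these shares, since the genes were chosen on this contrast. The number passing FDR under 0.01 was 0 when dog 2 or dog 3 was left out, 1 without dog 5 and 2 without dog 4. At an unadjusted p under 0.05 it was 5 in each of these fits. The share of all tested genes at that threshold is not given here, and for genes chosen on this contrast the count adds no support. In bulk tissue, fewer cells of a type and less RNA per cell cannot be told apart.

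PDGFRB (ENSCAFG00000018214) had the most even difference of the 5 genes. Its normalized counts in Pre-ACTH were 2789 in dog 1, 2410.2 in dog 2, 2019 in dog 3, 2122 in dog 4 and 2254 in dog 5. In Post-ACTH they were 1552, 1469.7, 1255, 1319.8 and 1301 in the same order. The groups did not overlap, and the highest Post-ACTH value was 0.769 of the lowest Pre-ACTH value. The mean went from 2319 ± 301 to 1379 ± 125 (SD, n = 5 each), for a fitted log2 fold change of -0.74 (SE 0.07). Within dogs the log2 ratio ran only from -0.85 in dog 1 to -0.68 in dogs 3 and 4, so that each dog retained between 55.7% and 62.2% of its Pre-ACTH level, the narrowest range of the 5 genes.

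CD34 (ENSCAFG00000011722) showed the smallest difference. In Pre-ACTH the values were 852 in dog 1, 810.2 in dog 2, 742 in dog 3, 612 in dog 4 and 579 in dog 5, and in Post-ACTH 650.5, 501, 528, 323 and 519.9. Here the groups overlapped, because the Post-ACTH value of dog 1 lay above the Pre-ACTH values of dogs 4 and 5. The mean went from 719 ± 120 to 505 ± 117 (SD, n = 5 each), a log2 fold change of -0.53 (SE 0.11). Within dogs the log2 ratio ranged from -0.92 in dog 4 to -0.15 in dog 5, where 89.8% of the Pre-ACTH level was retained.

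THY1 (ENSCAFG00000029265) differed most between dogs before treatment. Its Pre-ACTH values were 991 in dog 1, 467 in dog 2, 537 in dog 3, 282 in dog 4 and 221 in dog 5, a 4.48-fold span. After treatment they were 225, 172, 116, 97.9 and 173, a 2.30-fold span. The Post-ACTH value of dog 1 was slightly above the Pre-ACTH value of dog 5, so the groups overlapped by this 1 pair of libraries. The mean went from 499.5 ± 304 to 157 ± 50.6 (SD, n = 5 each), a log2 fold change of -1.55 (SE 0.26). Dog 5, which had the lowest Pre-ACTH level, also had the smallest difference, with a log2 ratio of -0.35, whereas the other 4 dogs lay between -2.19 and -1.43. Without dog 5 the fitted log2 fold change of THY1 was -1.83.

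FAP (ENSCAFG00000010387) was the most even of the 5 genes before treatment. The Pre-ACTH values were 169 in dog 1, 148 in dog 2, 187 in dog 3, 149.5 in dog 4 and 149.3 in dog 5, with a coefficient of variation of 10.7%. In Post-ACTH they were 74.2, 32.5, 80.6, 56.9 and 74.4, with a coefficient of variation of 30.7%. No Post-ACTH library reached the Pre-ACTH range, and dog 2 was lowest in both groups. The mean went from 161 ± 17.3 to 63.7 ± 19.5 (SD, n = 5 each), a log2 fold change of -1.38 (SE 0.18), and dog 2, at a log2 ratio of -2.12, and dog 5, at -0.99, were the extremes. The lowest value rests on 34 reads, with an exact Poisson 95% interval of 23.5 to 47.5 reads that covers counting error only.

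PI16 (ENSCAFG00000001438) showed by far the largest difference. It measured 644 in dog 1, 603 in dog 2, 409.9 in dog 3, 369 in dog 4 and 347 in dog 5 before treatment. After treatment the values were 96.8, 33.5, 28.3, 25.2 and 75.4. Even the highest Post-ACTH library, that of dog 1, was at 0.279 of the lowest Pre-ACTH library. The mean went from 475 ± 139 to 51.8 ± 32.3 (SD, n = 5 each), a log2 fold change of -3.30 (SE 0.30), and only 43 of the 13577 tested genes had a lower fitted value, so that it ranked 44 from the bottom. Among the Post-ACTH libraries dogs 1 and 5 were the higher ones, with 90 and 78 reads, and the other 3 had 27 to 35 reads. The exact Poisson 95% intervals of the lowest and highest library were 17.8 to 39.3 and 72.4 to 111 reads. They refer to raw reads and cover counting error only. Both libraries were picked as the extremes, so the gap between their intervals is not a test. Dogs 1 and 5 also had the smallest within-dog differences, with log2 ratios of -2.71 and -2.17 against -4.09 to -3.76 in the other 3 dogs.

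**Figure D1:**
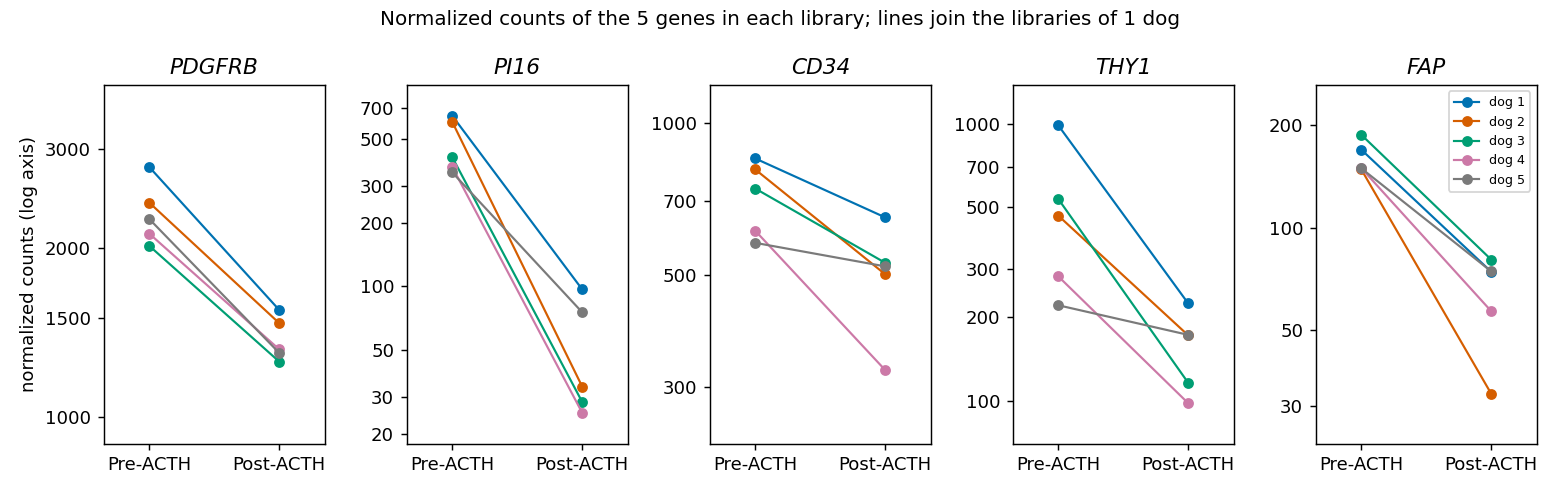
Normalized counts (log axis) of PDGFRB, PI16, CD34, THY1 and FAP in the Pre-ACTH and Post-ACTH library of each dog, with a line joining the libraries of 1 dog. Each panel has its own log range, so slopes cannot be compared between panels. Every line slopes downward, nearly in parallel for PDGFRB. Dog 5 has the flattest line of its panel for CD34 (579 to 519.9) and THY1 (221 to 173).

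All 5 genes were lower in all 5 dogs, which held for 13.5% of all tested genes, and in 3 of the 5 genes every Post-ACTH value lay below every Pre-ACTH value, which held for 4.74% of all tested genes. Both counts follow from the choice of the genes, and the sizes of the differences come from the same contrast and are described only. Fitted log2 fold changes ran from -3.30 for PI16 over -1.55 for THY1, -1.38 for FAP and -0.74 for PDGFRB to -0.53 for CD34, a range of 2.77, which is a 6.81-fold gap between the extremes. Their SD was 1.09.

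The genes differed within dogs as well. The SD of the 5 log2 ratios inside 1 dog was between 0.79 in dog 5 and 1.41 in dog 2. In the grid of 5 genes and 5 dogs, differences between genes made up 79.9% of the sum of squares of the log2 ratios. Differences between dogs made up 8.64%. The remaining 11.5% holds gene-specific differences between dogs together with counting and library noise, which cannot be separated here. PI16, furthest from the mean of the genes, gave the largest part of the share between genes. PI16 had the lowest log2 ratio in 5 of 5 dogs, and CD34 the highest in 4 of 5, with PDGFRB highest in dog 4.

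Of the 10 pairs that can be formed from the 5 genes, 7 had the same order in all 5 dogs, and in 8 the mean difference of the log2 ratios was larger than its SD over the dogs. PI16 lay below THY1 by a mean log2 difference of -1.78 ± 0.79, below FAP by -1.93 ± 0.58, below PDGFRB by -2.56 ± 0.88 and below CD34 by -2.77 ± 0.60 (SD, n = 5 dogs). FAP lay below PDGFRB in 5 of 5 dogs by -0.62 ± 0.48 and below CD34 by -0.84 ± 0.36. THY1 lay below CD34 in 5 of 5 dogs by -0.99 ± 0.69, but below PDGFRB in only 4 of 5, by -0.78 ± 0.75, with the order turned in dog 5. In 2 pairs the mean difference was smaller than its SD. These were THY1 with FAP, at -0.15 ± 0.82 with THY1 lower in 3 of 5 dogs, and PDGFRB with CD34, at -0.22 ± 0.34 with PDGFRB lower in 4 of 5. The genes thus formed an order with PI16 alone at the bottom, THY1 and FAP next to each other, and PDGFRB and CD34 nearest to 0. These differences come from the contrast on which the genes were chosen and were not tested.

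**Figure D2:**
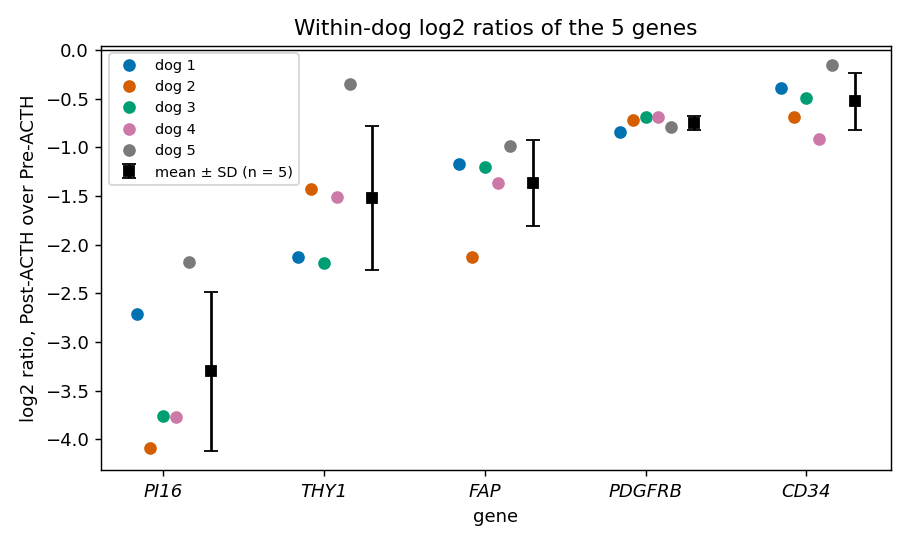
Log2 ratio of Post-ACTH over Pre-ACTH in each dog (points) with the mean ± SD over the 5 dogs (squares), for the 5 genes ordered from the lowest to the highest mean. PI16 lies between -4.09 and -2.17 and the 5 points of PDGFRB between -0.85 and -0.68.

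An equal change of all 5 genes would leave the reads of one gene per 100 reads of another unchanged within a dog. Set against PDGFRB in the same library, PI16 went from 20.2 ± 3.95 reads per 100 PDGFRB reads before treatment to 3.69 ± 2.13 after it (SD, n = 5), with ranges of 15.4 to 25.0 and 1.91 to 6.24 that did not overlap. FAP went from 7.04 ± 1.32 to 4.69 ± 1.61 reads per 100, lower in all 5 dogs, although the value of 6.42 in dog 3 after treatment was above the Pre-ACTH values of dogs 1 and 2, at 6.07 and 6.15. THY1 went from 20.9 ± 10.4 to 11.2 ± 2.90, and dog 5 moved the other way, from 9.82 to 13.3. For CD34 the direction was opposite and small: 31.1 ± 4.28 before and 36.5 ± 7.46 after treatment, higher in 4 of 5 dogs and lower in dog 4, a difference of the means smaller than the SD of Post-ACTH. These ratios use raw read shares of different genes without correction for transcript length, so only their change between libraries of a gene has a meaning, not their order between genes.

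**Figure D3:**
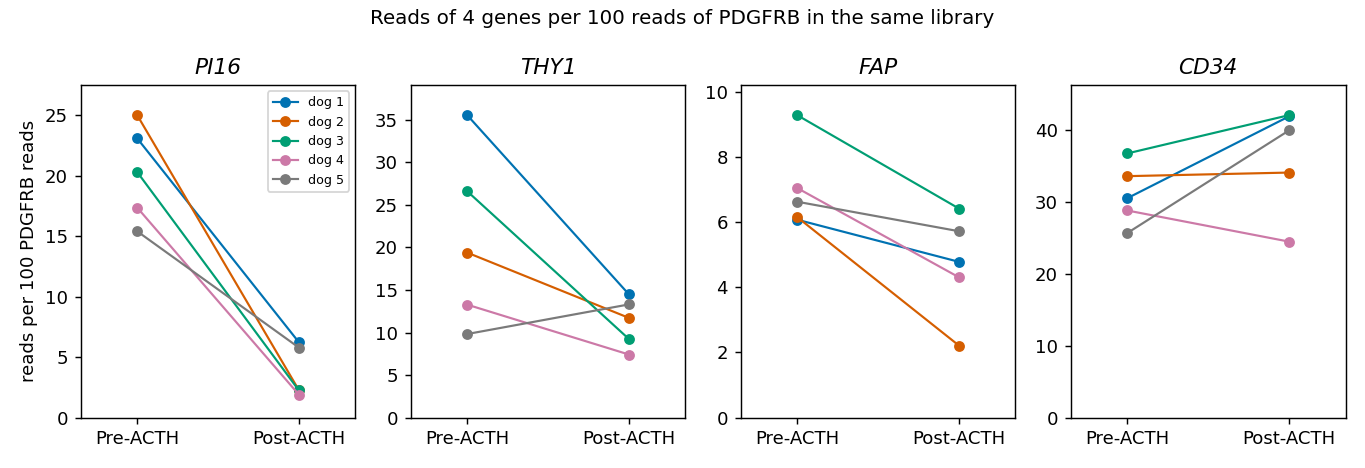
Reads of PI16, THY1, FAP and CD34 per 100 reads of PDGFRB in the same library (linear axes from 0), with a line for each dog. The Pre-ACTH points of PI16 lie at 15.4 to 25.0 and its Post-ACTH points at 1.91 to 6.24, while the lines of CD34 cross and stay between 24.5 and 42.1.

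The dogs held a similar rank in several of the genes. Dog 1 had the highest value of PDGFRB, PI16, CD34 and THY1 in Pre-ACTH and again in Post-ACTH, but not of FAP. Dog 5 had the lowest Pre-ACTH value of PI16, CD34 and THY1 and, of the 5 dogs, the smallest within-dog difference in PI16, CD34, THY1 and FAP, with a mean log2 ratio over the 5 genes of -0.89 against -1.81 to -1.45 in the other dogs. Dog 4 had the lowest Post-ACTH value of PI16, CD34 and THY1. PDGFRB did not follow this, since dog 5 showed its second largest difference, at -0.79. FAP had its own order too, with the largest difference in dog 2. With dog 5 left out, the mean log2 ratios over the other 4 dogs were -3.58 ± 0.60 for PI16, -1.81 ± 0.40 for THY1, -1.46 ± 0.45 for FAP, -0.73 ± 0.08 for PDGFRB and -0.62 ± 0.23 for CD34 (SD, n = 4). Log2 ratios of the 2 females and the 3 males overlapped for each of the 5 genes. For PI16 they barely did, with -4.09 and -3.76 in the females and -3.77 to -2.17 in the males, where dog 4 alone reached the range of the females.

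To see which genes had the same course over the 10 libraries, the log2 CPM of each gene (library-scaled read counts) were centred on their own mean, and the root mean square distance to each of the 5 genes was taken over 12274 genes with a mean CPM of 1 or more. Only 1065 of these have a symbol, and all of those come from the study's list, so the nearest named genes are described and their direction is not independent. Nearest to PDGFRB were RAPH1 (distance 0.084), which codes for an actin regulator, LVRN (0.119), an aminopeptidase, and PDGFC (0.15), a ligand of the platelet derived growth factor family, and no gene compared, named or not, came closer than these 3. Nearest to THY1 were the matrix genes DCN (0.27), for the proteoglycan decorin, and COL1A2 (0.273), a chain of type I collagen, followed by the complement protease C1S (0.329). Decorin went from 14473 in dog 1 and 4439 in dog 5 to 3617 and 3246 normalized counts, so it shared with THY1 a wide Pre-ACTH spread and a small difference in dog 5. FAP had CES2 (0.217), a carboxylesterase, CDK6 (0.253), a cell cycle kinase, and SESN3 (0.26), a stress-response protein, as nearest named genes, and for CD34 they were TBC1D1 (0.15), HTRA1 (0.152) and SMYD2 (0.165). Distances were larger for PI16, whose nearest named genes were CD1D (0.428), a lipid-presenting molecule, APLNR (0.562), the apelin receptor, and HHIP (0.589), a hedgehog-binding protein. Between the 5 genes, PDGFRB and CD34 were the closest pair, at 0.266, and PI16 and CD34 the most distant, at 1.45. Even in the closest pair many other genes were nearer. Among all genes compared, CD34 ranked 284 by distance to PDGFRB, and PDGFRB ranked 354 by distance to CD34. The symbols do not cover most genes, and closer unnamed genes existed for CD34 and THY1.

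Neighbouring genes were taken from lists of other markers, of pathway partners and of other cell types. Such a gene could be followed only where the study's list gives its identifier, which applied to 43 of 145 different genes, not counting PDGFRB, PI16, CD34, THY1 and FAP. Because these genes had been called by the study on these samples, their direction is not independent evidence. For the same reason, medians and sums over them do not stand for the full lists, whose other genes were not followed. Of the 43, 39 were lower and 4 higher, and 12 lower and 0 higher passed FDR under 0.01 in edgeR's quasi-likelihood test, where 1.22% of all tested genes passed as lower and 0.751% as higher. At an unadjusted p under 0.05 the counts were 39 lower and 4 higher, and DESeq2 at FDR under 0.01 gave the same 39 and 4. The study had called these genes with DESeq2 at that threshold, so these counts follow from the choice and add no support.

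Other surface markers of progenitors and fibroblasts could be followed for 6 of 18 genes, with a median log2 fold change of -0.99. NT5E, the ecto-enzyme CD73, fell from 155 ± 65.9 to 49.2 ± 8.98 normalized counts (SD, n = 5 each), a log2 fold change of -1.60 with an SE of 0.20 (edgeR's quasi-likelihood test, adjusted p = 0.00522). The collagen receptor DDR2 (-0.77, SE 0.20) and the anthrax toxin receptor ANTXR1 (-1.07, SE 0.17) did not pass the threshold. VCAM1, an adhesion molecule, was the 1 gene of this list with a higher value, 711 ± 131 before and 1273 ± 360 after treatment (log2 fold change 0.82, SE 0.14, adjusted p = 0.0134), a gene singled out after its values were seen.

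Matrix and transcription factor genes of fibroblasts were represented by 16 of 24 genes, all lower (median log2 fold change -1.44, range -2.93 to -0.68), and 8 were called. CXCL12, a chemokine made by stromal cells, had the lowest p, an adjusted 0.00199 at a log2 fold change of -1.93 (SE 0.13), followed by the collagen-binding proteoglycan LUM (-1.49, SE 0.11). COL1A2 fell by 1.68 on the log2 scale (SE 0.17, adjusted p = 0.00351), and COL1A1, the other chain of type I collagen, had a log2 fold change of -1.72 (SE 0.27) with an adjusted p of 0.0105. THY1, FAP and PDGFRB lay inside the range of this list. PI16, at -3.30 (SE 0.30), lay below its lowest member, at -2.93 (SE 0.31). CD34, at -0.53 (SE 0.11), lay above its highest, at -0.68 (SE 0.12). These positions are of fitted values and were not tested.

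Of the platelet derived growth factor genes besides PDGFRB, 2 of 6 could be followed. PDGFC fell from 754 ± 87.0 to 536 ± 85.2 normalized counts (SD, n = 5 each), which is -0.50 on the log2 scale (SE 0.07, adjusted p = 0.00952 in edgeR), while PDGFRL, a receptor-like protein, had a log2 fold change of -1.37 (SE 0.23) and did not pass. In a list that joined FAP family genes with plasma protease genes, only PLAU, the urokinase plasminogen activator, had an identifier. PLAU fell by 1.29 on the log2 scale (SE 0.15). Among known binding partners of THY1 and CD34, the integrin chains ITGAV (-0.43, SE 0.10), ITGAX (-2.25, SE 0.38) and ITGAM (-0.88, SE 0.17) were lower without passing the threshold. The last 2 are integrin chains of leukocytes, and ITGAM is counted again among the leukocyte markers below.

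The markers of other cells that could be followed did not share 1 direction. They are the markers that the study had called changed, so their sums and medians are not levels of the cell types. Of 13 mural cell markers 3 could be followed, and none passed FDR under 0.01: MYH11, a smooth muscle myosin, had a log2 fold change of 0.89 (SE 0.29), the muscle filament DES 1.4 (SE 0.28) and the receptor NOTCH3 -0.67 (SE 0.19). Their summed level was 61.7 to 125 CPM in Pre-ACTH and 75.3 to 113 in Post-ACTH. The 2 of 15 endothelial markers with an identifier, CLEC14A (-0.61, SE 0.10) and CD93 (-1.24, SE 0.24), summed to 138 to 198 CPM in Pre-ACTH and 41.0 to 114 in Post-ACTH, and neither gene passed FDR under 0.01. For leukocytes, 7 of 11 markers summed to 168 to 335 CPM before and 69.7 to 174 after treatment, with a median log2 fold change of -0.93. LCP1, an actin-bundling protein of leukocytes, was the 1 called gene (-1.26, SE 0.19, adjusted p = 0.00988), and PTPRC, the pan-leukocyte antigen CD45, and CSF1R, the receptor of the macrophage growth factor, had log2 fold changes of -1.10 (SE 0.22) and -0.75 (SE 0.21). The part of endothelial, mural and immune cells in the levels of the 5 genes was not tested.

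Mature fat cells were represented by LIPE, the hormone-sensitive lipase, alone of 17 markers, at 22361 ± 2352 normalized counts before and 31020.2 ± 2167 after treatment (SD, n = 5 each; log2 fold change 0.48, SE 0.11, adjusted p = 0.0313). It was abundant in all 10 libraries, at 1513 CPM or more, and the other markers were not analysed here. Of the cell cycle genes 3 of 10 could be followed, among them the proliferation antigen MKI67 (-1.75, SE 0.40) and the thymidine kinase TK1 (-1.39, SE 0.35), and they summed to 5.70 to 17.5 CPM in Pre-ACTH and 2.30 to 4.32 in Post-ACTH, with no gene called. None of the 10 mesothelial markers had an identifier.

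**Figure D4:**
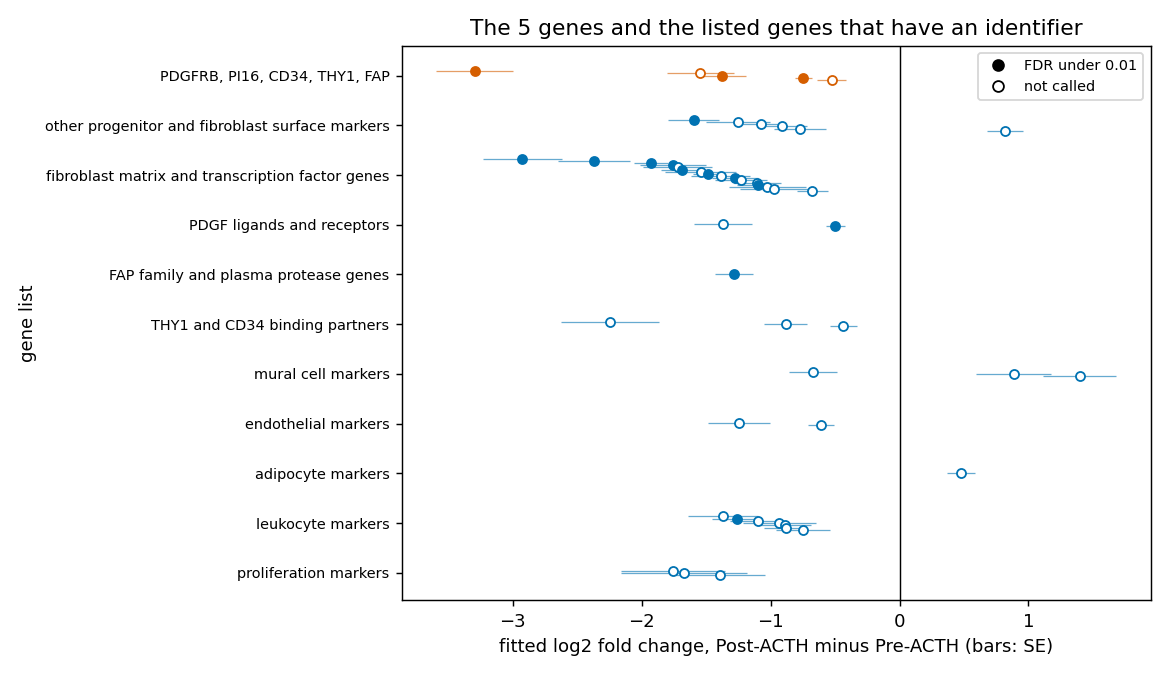
Fitted log2 fold change of Post-ACTH over Pre-ACTH with its SE for PDGFRB, PI16, CD34, THY1 and FAP (orange) and for the listed genes that could be followed (blue), 1 row per list, with filled points for FDR under 0.01 in edgeR's quasi-likelihood test. PI16, at -3.30, is the lowest point of the plot, and the 4 points above 0 are VCAM1, MYH11, DES and LIPE.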

How the data were processed

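The deposited values are raw read counts, 1 table per sample. The authors trimmed the reads, used STAR with CanFam3.1 and counted per Ensembl gene by featureCounts. Tool versions, strand setting and handling of multi-mapping reads are not given in the sources used here. The labels and the paper's methods differ on library type and read length. The authors' fold changes and p-values in the supplementary gene list were not used, only its identifiers and symbols (1079 of 1190 genes).

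Counts were analysed with edgeR 4.0.16 under R 4.3.3 (TMM factors, glmQLFTest, dog as block). A gene was kept if 1 library or more reached 10 reads. P-values were adjusted over all 13577 tested genes (Benjamini-Hochberg, FDR under 0.01). The SE is the fold change divided by the root of the F statistic. Single-dog log2 ratios came from log2 CPM, prior count 2. Totals of 8728330 to 14867529 reads make genes with few reads imprecise. The fit was tested on simulated data.

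The 5 genes and all lists were chosen with earlier results of these data known. Named genes were the 5, the first 2 with an identifier and the 2 lowest p of each list, and the 3 nearest named genes of each of the 5. Pairing comes from the animal ID. Deviations from the group means correlated within a dog by 0.27 on average (0.077 in dog 4 to 0.412 in dog 2) over 13577 genes. Between dogs the average was -0.068. Centring on the group means ties this average to the within-dog average with the opposite sign, so it is no separate baseline. The highest correlation between different dogs was 0.206, above the within-dog value of dog 4. Alternatives were DESeq2 1.42.0, limma-voom (limma 3.58.1), no replicate block, other scalings and filters, an FDR of 0.05, and leaving out each dog.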

Additional observations from a re-analysis of the deposited data

How the results depend on the processing

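In all 12 other fits the 5 genes had log2 fold changes below 0, and in 10 of the 12 they stood in the same order. FAP lay below THY1 when dog 1 or dog 3 was left out. The log2 fold change ranged from -3.61 to -3.09 for PI16, -1.83 to -1.37 for THY1, -1.48 to -1.2 for FAP, -0.77 to -0.72 for PDGFRB and -0.62 to -0.43 for CD34. The SD among the 5 was between 1.02 and 1.2 with 1 dog left out.

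The number of the 5 genes passing FDR under 0.01 was 3 in edgeR's quasi-likelihood test. It was 5 with DESeq2, the tool with which the study called them, and 5 at FDR under 0.05. With 1 dog left out it ran from 0, without dog 2 or dog 3, to 3 without dog 1. All 5 had an unadjusted p under 0.05 in each of these fits, which adds no support for genes chosen on this contrast. Over all tested genes 268 were called. The count was 1180 with DESeq2, 438 without a filter on low counts, 1509 at FDR under 0.05, and from 1 (without dog 2) to 318 (without dog 1) with 1 dog left out, with 12 without dog 3, 117 without dog 4 and 23 without dog 5. Of the 43 listed genes 12 were called, against 43 with DESeq2, the tool with which the study chose them, 21 without a filter, 36 at FDR under 0.05, and 0 (without dog 2) to 15 with 1 dog left out. The values without dog 3, 4 and 5 were 1, 7 and 4. Fits without 1 dog hold fewer samples. Beyond that, the cause of these shifts was not tested.

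Without the replicate block, 262 genes were called, 3 of the 5 genes were among them, and 11 of the listed genes. Total-count and RLE scaling left the number of the 5 called genes at 3, and limma-voom gave 4. Depth limits PI16 and FAP most, with 27 and 34 reads in their lowest libraries. Of 15 sets of 5 values examined (each gene in each group, and its within-dog ratios), 0 had a value apart from the rest by Dixon's criterion.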
